A study of Mus musculus with 40 samples.

Results

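The effect of an 18-week high-fat diet on the aortic transcriptome of mice that lack EGFR in endothelial cells was examined in 10 aortas, the 5 EC-EGFR-KO aortas under HFD (R-16 to R-20) and the 5 under standard-fat diet (SFD, R-11 to R-15), out of 20 aortas and 40 libraries in all. The members were chosen by the tissue, genotype and diet given in the labels. The quasi-likelihood test of edgeR, the main test here, was repeated without R-12. EC-EGFR-KO mice carried Tek-cre, a transgene under the promoter of the endothelial receptor Tie2, and floxed Egfr on a C57BL/6 background, and EC-EGFR-WT controls carried Tek-cre without loxP sites. Cre acts from development on in this model and is not inducible, and Tie2-driven Cre is also active in haematopoietic cells. HFD provided 60% of energy from fat and SFD 10%. The diets began at an age of 6 weeks. Sex and time of collection are not given in the sources used here. Fat and connective tissue around the aortas were removed before freezing, and each library was taken as 1 mouse.

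EGFR is a receptor tyrosine kinase that is activated by ligands such as EGF, heparin-binding EGF-like growth factor and epiregulin, and it signals through the MAP kinase cascade to immediate-early transcription factors. The aortic wall consists of an endothelial layer, a media of smooth muscle cells and elastic lamellae, and an adventitia of fibroblasts, matrix and resident immune cells, with perivascular fat outside. Feeding fat in excess is known to lower lipogenic enzymes in adipose tissue and, over longer times, to favour inflammation and stiffening of large arteries. RNA of whole aortas mixes these cells, so that fewer cells of a type and less RNA per cell cannot be told apart.

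Between 18703113 and 36452741 counts per KO library fell on genes, with medians of 19771676 under SFD and 19831037 under HFD. The table lists 55335 genes, and 7724 of them, on a part of chromosome 8 and on chromosomes 9, MT, X and Y, were at 0 in every aorta and were not analysed here. Counts of R-12 and of R-1, an aorta labelled WT under SFD, differed by less than sampling noise (median chi-square over genes 0.0277, against 0.455 for noise alone and 1.60 for the next closest pair of aortas). One of them may therefore be the other library again, so the values without R-12 stand beside the main ones. Both also had more counts than any other aorta, 36419598 in R-1 and 36452741 in R-12. How the likeness arose was not tested. Smooth muscle and endothelial markers marked the tissue as the labels state, with Myh11 at 8022 to 9199 FPM (counts scaled to library depth) under SFD and 7679 to 10751 FPM under HFD and Pecam1 at 347 to 929 and 307 to 873 FPM. Some libraries stood apart in other cell types. Summed over 12 lymphoid genes, R-11 had 167 FPM and R-16 269.6 FPM, against 13.4 to 30.4 FPM in the other 8 KO aortas. The same libraries were highest in the sum of 6 red blood cell genes, with 80139 FPM and 61118 FPM, and lowest in that of 13 endothelial genes, with 978 FPM and 844 FPM against 1335 to 2221 FPM. R-16 also had the highest sum of 20 macrophage and inflammation genes, 2594 FPM, against 535 to 908 FPM in the others.

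Egfr (ENSMUSG00000020122, chromosome 11, 16752203 to 16918158), the deleted gene, was read first. The levels were 37.6, 38.3, 46.1, 50.0 and 48.1 FPM in R-11 to R-15 under SFD and 36.9, 41.4, 43.6, 45.7 and 54.7 FPM in R-16 to R-20 under HFD. The 2 diet groups overlapped throughout (log2 fold change 0.01, standard error 0.15, unadjusted p = 0.920). In EC-EGFR-WT aortas Egfr averaged 39.6 ± 8.93 FPM on SFD and 40.5 ± 6.36 FPM on HFD (SD, n = 5 mice per diet). Counts over the whole gene in a whole aorta include smooth muscle cells and adventitial fibroblasts, which Tie2-driven Cre does not target, and exons outside the deleted one, so this level does not check the deletion in endothelium.

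No gene passed the test of HFD against SFD in EC-EGFR-KO aortas under the thresholds used here, an adjusted p under 0.05 in edgeR's quasi-likelihood test, a fold change over 1.5 and a mean above 5 FPM under SFD or HFD. Of 15122 genes tested, 0 were called (0%), and the smallest adjusted p was 0.752, that of Cyp2e1. At an unadjusted p under 0.05 stood 690 genes (4.56%), fewer than the 756.1 that uniform p-values would give. Of these, 263 (1.74%) were higher and 427 (2.82%) lower under HFD. Without R-12, 444 of 15315 genes reached that p (2.90%), 208 higher and 236 lower, and the smallest adjusted p was 1.00. With all libraries, the DESeq2 Wald test, edgeR's exact test and its likelihood ratio test each called 1 gene, Cyp2e1. These other tests were not run without R-12. In 51 genes (0.337%) every HFD library lay above every SFD library, and in 58 genes (0.384%) every one lay below. Among the genes with such a separation, over 5 FPM and a fold change over 1.5, there were 5 higher and 12 lower ones with a gene name other than a model or clone name. They are described here with their groups, as values that did not pass the adjusted test. Without R-12, 90 of these 15122 genes were separated upwards and 96 downwards. A smaller group is separated more easily by chance, so these higher counts do not show a larger difference. Some separation also arises by chance with all libraries, and no count was made of how much. The plot of the named genes shows each library.

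**Figure D1:**
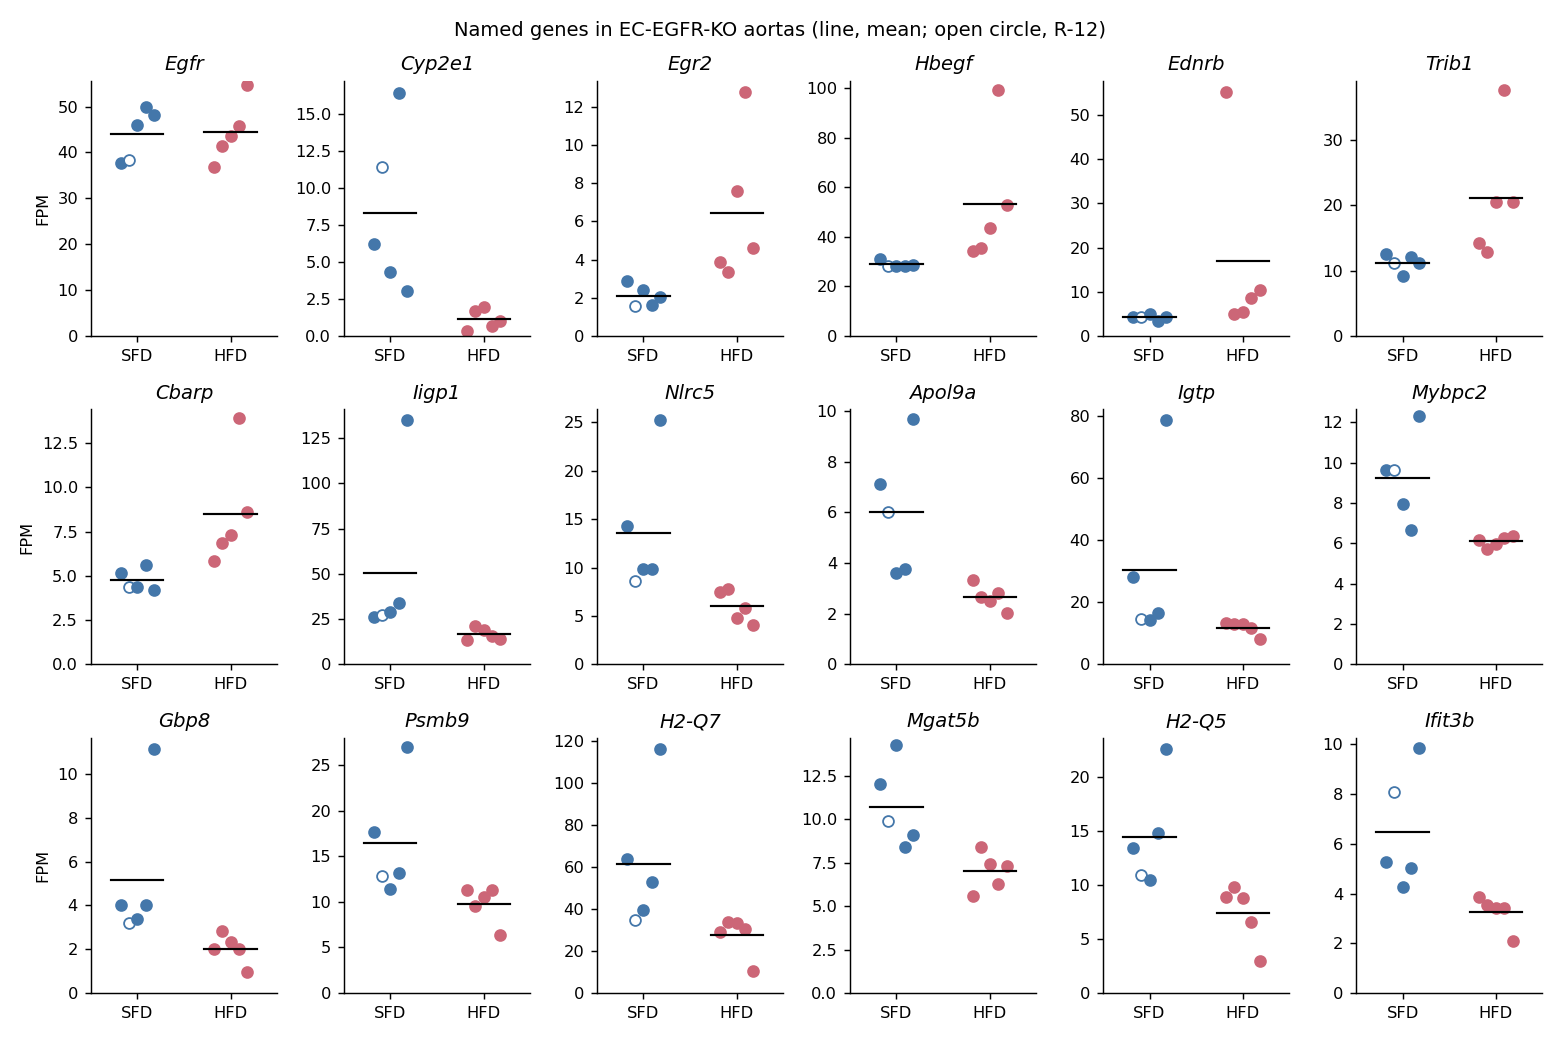
Levels of Egfr, Cyp2e1, the 5 genes higher under HFD and the other 11 genes lower under HFD in the 10 EC-EGFR-KO aortas, in FPM on linear axes from 0. Each circle is 1 aorta, the open circle is R-12 and the line is the group mean. Apart from Egfr the diet groups do not overlap, and single libraries carry much of the distance, such as R-16 for Ednrb at 55.1 FPM and R-15 for Iigp1 at 135 FPM.

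Cyp2e1 (ENSMUSG00000025479, chromosome 7, 140763739 to 140774987), a cytochrome P450 that oxidizes ethanol, acetone and fatty acids, had the smallest p. Its levels were 6.18, 11.4, 4.30, 16.4 and 3.01 FPM in R-11 to R-15 under SFD and 0.328, 1.66, 1.96, 0.693 and 0.987 FPM in R-16 to R-20 under HFD. Every HFD aorta lay under 2 FPM and below every SFD aorta, while the SFD aortas themselves spread widely. The means were 8.26 ± 5.56 FPM on SFD against 1.12 ± 0.674 FPM on HFD (SD, n = 5 per diet), and the log2 fold change was -2.85 (standard error 0.55, unadjusted p = 4.97e-05, adjusted p = 0.752 in edgeR's quasi-likelihood test). It was -2.70 without R-12. With the DESeq2 Wald test the adjusted p was 0.000686, with edgeR's exact test it was 0.00326 and with its likelihood ratio test it was 0.00305. These tests were run with all aortas and not without R-12. R-14 and R-12, the highest for Cyp2e1, also had the highest sums of 24 white adipocyte genes among the KO aortas, 1173 FPM and 1154 FPM. Other aortas did not follow that order in the sum. R-16 came next with 1064 FPM and was the lowest for Cyp2e1. R-15 had the lowest sum, 860 FPM, and lay above every HFD aorta for Cyp2e1. The order depended on the measure. The score of the list, a mean of log2 values centred over the aortas, was highest in R-14 (0.251) and R-12 (0.246). R-11 (-0.139), next for Cyp2e1 too, and R-16 (-0.183) followed. R-13 had the lowest score of the KO aortas, -0.472, and lay above every HFD aorta for Cyp2e1. With the score as a covariate the log2 fold change was -2.14 (adjusted p = 0.193 in edgeR's quasi-likelihood test). Whether residual fat contributed to the Cyp2e1 difference was not tested. Among 21 tested genes of drug and aldehyde metabolism, 0 were higher and 2 lower at an unadjusted p under 0.05, where 1.74% and 2.82% of all genes were. The 2 were Cyp2e1 itself and Gsta3, a glutathione S-transferase (log2 fold change -0.68, standard error 0.26, unadjusted p = 0.0160). The median log2 fold change of this list was -0.13, against -0.01 over all genes tested.

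Genes of white adipocytes were lower under HFD in most cases, without a gene past the adjusted test. Of 24 tested members, 18 were lower, 3 of them at an unadjusted p under 0.05, and 1 of the 6 higher ones reached that p, where 2.82% and 1.74% of all genes did. Without R-12 the counts were 1 lower and 0 higher, where 1.54% and 1.36% of all genes were. The median log2 fold change was -0.23, and -0.19 without R-12. Cfd, which encodes the adipokine adipsin, had 40.0, 103, 17.9, 53.8 and 15.8 FPM in R-11 to R-15 under SFD and 10.3, 17.1, 13.2, 11.5 and 8.05 FPM in R-16 to R-20 under HFD. The SFD group was spread over a wide range with its top in R-12, and the groups overlapped. The log2 fold change of Cfd was -1.94 (standard error 0.59, unadjusted p = 0.00378) and -1.40 without R-12. Retn, the adipokine resistin, stood at -1.41 (standard error 0.58) and at -0.80 without R-12. Car3, a carbonic anhydrase abundant in fat cells, stood at -1.18 (standard error 0.49). Lep, the adipokine leptin, ran the other way, at 0 to 0.976 FPM under SFD and 1.07 to 2.24 FPM under HFD, with no overlap between the groups (log2 fold change 1.63, standard error 0.74, unadjusted p = 0.0394). Lep was outside the rule for named genes and was chosen after its values were seen. The summed level of the whole list was 859.6 to 1173 FPM under SFD and 871 to 1064 FPM under HFD, so the groups overlapped. Adipoq, a defining fat cell marker, was at 4.14 to 12.999 and 2.72 to 6.12 FPM, and whether residual fat contributed to these differences was not tested.

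Enzymes of fatty acid synthesis showed the same direction in 14 of 18 tested genes, with a median log2 fold change of -0.15. Thrsp, a regulator of lipogenesis, had 13.7, 35.8, 7.60, 15.5 and 9.73 FPM in R-11 to R-15 under SFD and 7.65, 5.07, 7.74, 5.49 and 5.38 FPM in R-16 to R-20 under HFD. R-12 held the highest value, and the log2 fold change moved from -1.40 (standard error 0.48, unadjusted p = 0.00942) to -0.89 (unadjusted p = 0.0642) without it. Fasn, the fatty acid synthase, differed by a smaller step, at 74.9 to 135 FPM under SFD and 57.9 to 94.6 FPM under HFD (log2 fold change -0.51, standard error 0.19, unadjusted p = 0.0161). Fads2, the delta-6 desaturase, had a log2 fold change of -0.31 (standard error 0.11, unadjusted p = 0.00970). These 3 genes were all that reached an unadjusted p under 0.05 in the list, where 2.82% of all genes were lower at that p. Without R-12, 1 member did so, where 1.54% of all genes were lower. Fatty acid oxidation and PPAR targets were evenly split, with 14 of 26 genes higher and a median log2 fold change of 0.03. Cpt1a, which controls entry of fatty acids into mitochondria, was at 75.9 to 123.003 FPM under SFD and 106 to 152 FPM under HFD (log2 fold change 0.37, standard error 0.15, unadjusted p = 0.0271, and unadjusted p = 0.0606 without R-12). Of 15 cholesterol synthesis genes, 0 reached an unadjusted p under 0.05 in either direction (0 called), and the median was -0.07, or -0.0066 without R-12. Among brown adipocyte genes Cidea, a lipid droplet protein, was lower (log2 fold change -0.72, standard error 0.33, unadjusted p = 0.0445), with -0.65 (unadjusted p = 0.0867) without R-12. The median of the 14 genes was -0.10, and -0.011 without R-12.

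Immediate-early genes, which encode the first transcription factors and feedback inhibitors induced by growth factors or stress, were higher in the EC-EGFR-KO HFD group. All 28 tested members of a list of 32 had a positive log2 fold change, with a median of 1.00. Of them, 18 lay at an unadjusted p under 0.05, where 1.74% of all genes did, and 0 were called. The list was put together after the values of these data had been seen, so its counts are a description. The summed level was 5016, 2553, 4252, 3746 and 4111 FPM in R-11 to R-15 and 2361, 5713, 9112, 21112 and 4205 FPM in R-16 to R-20. R-19 and R-18 were the highest of all 20 aortas and R-16 was the lowest of the KO aortas, so the groups overlapped. R-19 held the highest value of the 10 KO aortas for 27 of the 28 genes. Without R-19 the median was 0.46 with 6 genes at that p, and without both R-18 and R-19 it was 0.15 with 4. Over all genes, 544 and 532 had such a p in either direction in these fits. Without R-12 the number was 11, where 1.36% of all genes were higher.

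Egr2 (ENSMUSG00000037868, chromosome 10, 67535475 to 67542188), a zinc finger transcription factor of this class, was the named gene with the smallest p among the higher ones. Its levels were 2.88, 1.58, 2.40, 1.64 and 2.02 FPM in R-11 to R-15 under SFD and 3.88, 3.36, 7.58, 12.8 and 4.59 FPM in R-16 to R-20 under HFD. Every HFD aorta lay above every SFD aorta, R-19 and R-18 by the widest margin. The log2 fold change was 1.62 (standard error 0.36, unadjusted p = 0.000267, adjusted p = 0.987 in edgeR's quasi-likelihood test), 1.52 without R-12 and 0.93 without R-18 and R-19. Trib1, a pseudokinase that controls protein degradation and MAP kinase signals, had 12.5, 11.1, 9.25, 12.1 and 11.1 FPM in R-11 to R-15 under SFD and 14.3, 12.8, 20.6, 37.7 and 20.6 FPM in R-16 to R-20 under HFD. R-16 and R-17 lay just above the SFD group and R-19 far above it (log2 fold change 0.91, standard error 0.25, unadjusted p = 0.00144). Cbarp, a regulator of calcium channels, followed the same order, with 4.23 to 5.61 FPM under SFD, 5.85 to 13.9 FPM under HFD and its top in R-19 (log2 fold change 0.84, standard error 0.23, unadjusted p = 0.00184). Without R-19 the log2 fold change was 0.59 for Trib1 and 0.59 for Cbarp. The growth regulator Myc was at 2.45 to 4.46 FPM under SFD and 3.70 to 10.9 FPM under HFD (log2 fold change 1.08, standard error 0.28, unadjusted p = 0.000893). Arc, an activity-induced gene, was at 3.12 to 5.31 and 4.15 to 26.0 FPM (log2 fold change 1.46, standard error 0.38, unadjusted p = 0.00117).

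Serum response factor binds the CArG box of many immediate-early promoters, and the sequence before Egr2 is shown for that reason. In the RefSeq promoters (GRCm38.p6, 250 bases before each start) 3 of the 22 immediate-early genes with an entry held a CArG box on either strand, and 1.47% of the 10142 tested genes with an entry did. The cyclic AMP response element (TGACGTCA) was in 3 of the 22, against 2.86% of all, and the AP-1 site (TGANTCA) in 0, against 5.83%. The stretch before 1 of the 5 listed starts of Egr2, chr10:67537316-67537565 on the plus strand, has the CArG box in capitals.
Egr2: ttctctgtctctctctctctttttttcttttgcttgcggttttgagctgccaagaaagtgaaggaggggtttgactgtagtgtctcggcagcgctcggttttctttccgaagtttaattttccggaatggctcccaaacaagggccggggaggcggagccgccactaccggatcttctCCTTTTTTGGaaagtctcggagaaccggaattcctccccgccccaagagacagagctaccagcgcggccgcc

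**Figure D2:**
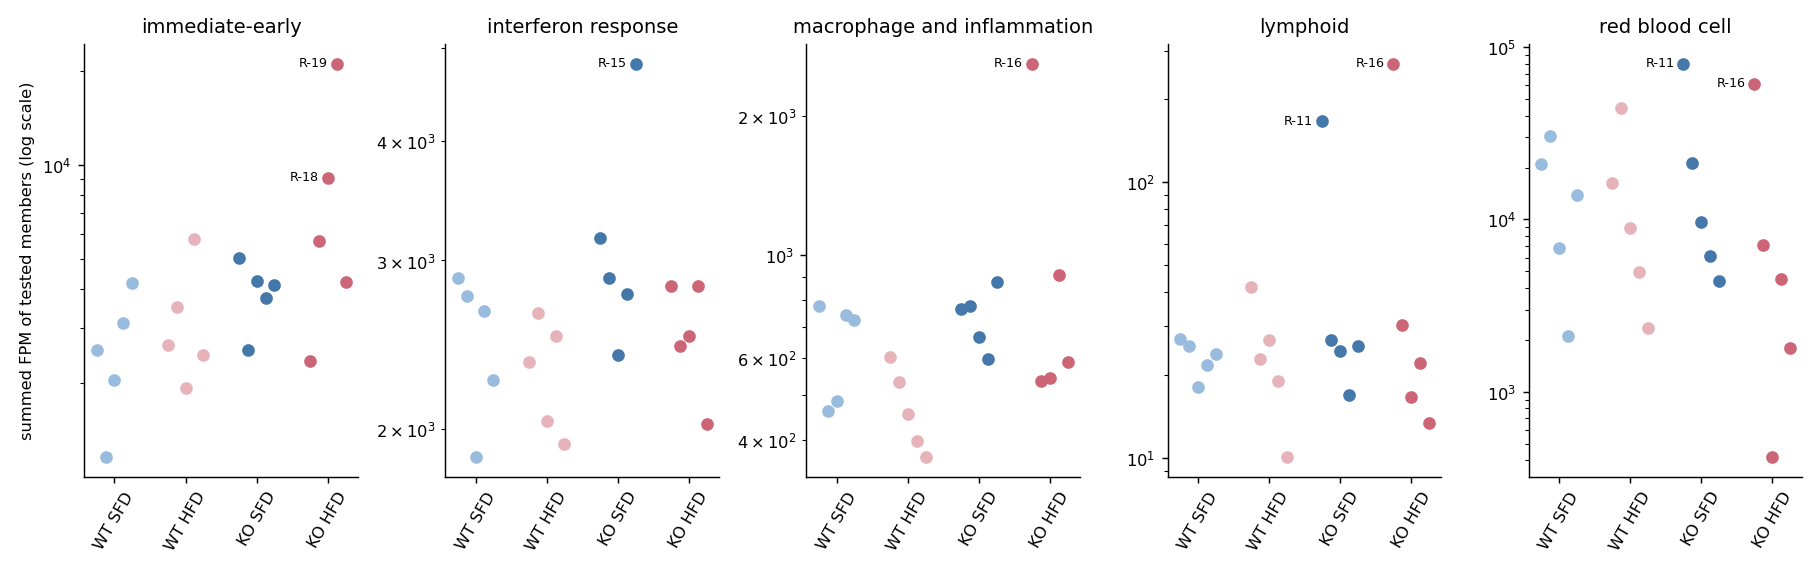
Summed FPM of the tested members of 5 gene lists in the 20 aortas, on log axes, by genotype and diet. Each point is 1 aorta. R-19 with 21112 FPM and R-18 with 9112 FPM lie above the other aortas for immediate-early genes and R-15 with 4820.1 FPM for interferon response genes. R-11 and R-16 lie highest for lymphoid and red blood cell genes and R-16 for macrophage genes.

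Among the 10 tested genes of the EGFR family and its ligands, the diet groups of 1 ligand gene did not overlap, where 0.337% of all genes were separated upwards. That gene, Hbegf, was named because of its separation. The receptor genes Egfr and Erbb2 had log2 fold changes near 0. Hbegf (ENSMUSG00000024486, chromosome 18, 36504927 to 36515805), heparin-binding EGF-like growth factor, had 31.0, 28.2, 28.4, 28.2 and 28.7 FPM in R-11 to R-15 under SFD and 34.4, 35.4, 43.7, 99.3 and 52.9 FPM in R-16 to R-20 under HFD. The SFD aortas lay within a narrow band and every HFD aorta above it, with R-19 farthest away. The log2 fold change was 0.88 (standard error 0.22, unadjusted p = 0.000732, adjusted p = 0.987 in edgeR's quasi-likelihood test) and 0.52 (unadjusted p = 0.00163) without R-19. Ereg, epiregulin, was at 8.65 to 15.7 FPM under SFD and 9.34 to 27.2 FPM under HFD, with overlap (log2 fold change 0.65, standard error 0.29, unadjusted p = 0.0365). Egf, at 0.790 to 1.85 and 0.416 to 1.32 FPM, was lower (log2 fold change -0.72, standard error 0.32, unadjusted p = 0.0353). The co-receptor Erbb2 averaged 26.8 ± 1.501 FPM on SFD against 26.8 ± 1.62 FPM on HFD (SD, n = 5 per diet), with a log2 fold change of -0.0013 (standard error 0.09). In all, 2 of 10 tested members were higher and 1 lower at an unadjusted p under 0.05, where 1.74% and 2.82% of all genes were, with a median log2 fold change of 0.04. Without R-12, 1 was higher, where 1.36% of all genes were, since Ereg then had an unadjusted p of 0.0562.

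Genes of the interferon response, which present antigens and restrict intracellular pathogens, were lower in the HFD group. Of 59 tested members of a list of 61, 56 had a negative log2 fold change, with a median of -0.56, and 23 lay at an unadjusted p under 0.05 in this direction, where 2.82% of all genes did. In 9 members the groups did not overlap, where 0.384% of all genes were separated downwards, and 0 were called. This list, too, was put together after the values had been seen. Its summed level was 3170.1, 2873, 2390.0, 2765 and 4820.1 FPM in R-11 to R-15 and 2819.7, 2438, 2502, 2822 and 2025 FPM in R-16 to R-20. R-15 was the highest of the 10 KO aortas for 45 of the 59 genes and R-20 the lowest for 37. Without R-15 the median was -0.25 with 7 genes at that p. Without R-12 the median was -0.58 with 24, where 1.54% of all genes were lower. Without R-20 it was -0.44 with 15. Over all genes, 718 without R-15 and 508 without R-20 had such a p in either direction.

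The interferon-stimulated response element (2 copies of TTTC with 2 bases between them) and the gamma-activated site (TTCNNNGAA) are the DNA motifs bound by STAT and IRF factors, and the promoters of Igtp and Apol9a are shown as examples among the genes that were lower. Of the 45 interferon response genes with a RefSeq promoter (GRCm38.p6, 250 bases before each start), 22 held the response element on either strand and 11 the gamma-activated site. Over the 10142 tested genes with an entry, the shares were 3.43% and 7.25%. The AP-1 site was also more frequent, in 9 of the 45 (20%) against 5.83% of all. The cyclic AMP response element and the CArG box were in 0, against 2.86% and 1.47% of all. Of the 22 immediate-early genes, 1 and 2 held the interferon-stimulated response element and the gamma-activated site. In the stretches before Igtp (chr11:58199306-58199555, plus strand) and before 1 of the 2 listed starts of Apol9a (chr15:77411035-77411284, minus strand) these motifs are in capitals, the gamma-activated site before the response element in Igtp and 2 overlapping response elements in Apol9a.
Igtp: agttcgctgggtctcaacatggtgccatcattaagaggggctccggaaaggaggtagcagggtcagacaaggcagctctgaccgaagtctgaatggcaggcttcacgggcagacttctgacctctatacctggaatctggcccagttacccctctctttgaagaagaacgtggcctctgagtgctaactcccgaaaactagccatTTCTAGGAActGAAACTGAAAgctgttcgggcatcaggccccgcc
Apol9a: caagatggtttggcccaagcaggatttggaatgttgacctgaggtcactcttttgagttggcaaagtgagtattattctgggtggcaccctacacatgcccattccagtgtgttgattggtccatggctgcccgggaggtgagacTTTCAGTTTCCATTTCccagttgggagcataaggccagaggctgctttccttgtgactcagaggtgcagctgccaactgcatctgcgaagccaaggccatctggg

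Iigp1 (ENSMUSG00000054072, chromosome 18, 60376027 to 60392634), an interferon-inducible GTPase, had 26.4, 27.4, 28.8, 34.2 and 135 FPM in R-11 to R-15 under SFD and 13.7, 21.1, 19.2, 15.5 and 14.2 FPM in R-16 to R-20 under HFD. R-15 stood several times above the other SFD aortas, and these in turn lay above every HFD aorta. The log2 fold change was -1.59 (standard error 0.39, unadjusted p = 0.000629, adjusted p = 0.987 in edgeR's quasi-likelihood test) and -0.80 (unadjusted p = 0.00161) without R-15. Igtp, a GTPase of the same family, had 28.2, 14.7, 14.4, 16.7 and 78.5 FPM in R-11 to R-15 under SFD and 13.2, 13.005, 12.9, 11.7 and 8.10 FPM in R-16 to R-20 under HFD. Here R-13 and R-12 lay close to the HFD aortas, and the log2 fold change was -1.37 with R-15 and -0.65 without it. Nlrc5 (ENSMUSG00000074151, chromosome 8, 94434356 to 94527272), the activator of MHC class I genes, had 14.3, 8.58, 9.80, 9.83 and 25.2 FPM in R-11 to R-15 under SFD and 7.49, 7.79, 4.83, 5.81 and 4.05 FPM in R-16 to R-20 under HFD. Its log2 fold change was -1.18 (standard error 0.31, unadjusted p = 0.00111) and -0.83 without R-15. The MHC class I genes H2-Q7 and H2-Q5 were at 34.5 to 116 and 10.5 to 22.7 FPM under SFD and at 10.7 to 33.8 and 2.96 to 9.84 FPM under HFD, with log2 fold changes of -1.16 (standard error 0.43) and -0.96 (standard error 0.42). Psmb9, a subunit of the immunoproteasome, stood at -0.74 (standard error 0.27). Gbp8, a guanylate-binding protein, stood at -1.34 (standard error 0.45), Apol9a at -1.18 (standard error 0.32) and Ifit3b at -0.99 (standard error 0.52, unadjusted p = 0.0695). Without R-15, Gbp8, Psmb9, H2-Q7, H2-Q5 and Ifit3b had unadjusted p-values of 0.0555 to 0.161, and Iigp1, Nlrc5, Apol9a and Igtp of 0.00161 to 0.0186. H2-Q5, H2-Q7, Apol9a, Gbp8 and Ifit3b have close copies in the genome, and how reads shared with a copy were counted is not given in the sources used here. Lymphoid genes were not high in R-15, at 25.6 FPM in sum, and its macrophage sum of 875 FPM was the highest of the SFD aortas.

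In the list of 20 tested macrophage and inflammation genes, 4 were higher and 0 lower at an unadjusted p under 0.05, where 1.74% and 2.82% of all genes were. The 4 were the chemokine genes Ccl7, Ccl2 and Cxcl1 and the acute-phase gene Saa3, and 0 genes of the list were called. The median log2 fold change was 0.08. Without R-12 the number higher at that p was 3, where 1.36% of all genes were. Ccl7, a chemokine for monocytes, had 4.97, 2.81, 3.45, 1.74 and 4.98 FPM in R-11 to R-15 under SFD and 7.05, 2.83, 8.08, 31.2 and 4.99 FPM in R-16 to R-20 under HFD. Ccl2, the main monocyte chemokine, had 4.88, 2.73, 3.60, 2.38 and 3.29 FPM in R-11 to R-15 under SFD and 5.79, 3.65, 4.58, 25.2 and 4.44 FPM in R-16 to R-20 under HFD. Both were highest in R-19, and without it their log2 fold changes were 0.67 (from 1.59) and 0.45 (from 1.37). Saa3, serum amyloid A of inflamed tissue, had 37.9 FPM in R-16 and at most 3.21 FPM in the other 9, and its log2 fold change of 3.12 was 0.05 without R-16. The macrophage genes Lyz2 and Adgre1 were likewise highest in R-16, at 1875 and 55.0 FPM, against at most 307 and 26.7 FPM in the others. The complement genes C1qa and C1qb, which resident macrophages express, had log2 fold changes of -0.15 and 0.09. Whether a larger number of immune cells in R-16 contributed to these values was not tested.

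Of the receptors and enzymes that set vascular tone, Ednrb (ENSMUSG00000022122, chromosome 14, 103814625 to 103844402), the endothelin receptor type B, was the only tested one whose diet groups did not overlap. Over all genes, 0.337% were separated upwards, and Ednrb was named because of its separation. It had 4.28, 4.22, 4.95, 3.33 and 4.28 FPM in R-11 to R-15 under SFD and 55.1, 5.07, 5.33, 8.59 and 10.5 FPM in R-16 to R-20 under HFD. R-16 lay far above the rest, R-17 and R-18 just above the SFD aortas. The log2 fold change was 2.00 (standard error 0.52, unadjusted p = 0.00112, adjusted p = 0.987 in edgeR's quasi-likelihood test) and 0.81 (unadjusted p = 0.00968) without R-16. Its ligand gene Edn1 stood at -0.39 (standard error 0.43), the type A receptor gene Ednra at -0.07 (standard error 0.16), and Nos3, the endothelial nitric oxide synthase, at 0.08 (standard error 0.36). Ptgs2, the inducible cyclooxygenase, had 178 FPM in R-19 and 5.25 to 39.2 FPM in the other 9 KO aortas, and its log2 fold change of 1.33 was 0.10 without R-19. Over 27 genes of vasoactive signalling and endothelial activation, 20 were higher, with a median log2 fold change of 0.08. Of these, 2 (Ednrb and Ccl2) lay at an unadjusted p under 0.05, where 1.74% of all genes were higher. The 13 endothelial identity genes had a median of -0.06 and 0 at that p, and the 16 smooth muscle genes a median of 0.06 and 0 at that p. Acta2, smooth muscle actin, was at 15790.2 to 29023 FPM under SFD and 16438 to 25338 FPM under HFD.

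Matrix genes held few differences between the diets. Of 16 tested collagens, 15 had a positive log2 fold change, all between -0.05 and 0.46, with a median of 0.14 and 0 at an unadjusted p under 0.05. R-20 held the highest collagen sum, 19495 FPM against 11118 to 15084 FPM in the other KO aortas, and the median was 0.04 without it. Among 15 elastic fibre genes Mfap5, a microfibril protein, was lower, with 379, 394, 278, 240.1 and 310.3 FPM in R-11 to R-15 under SFD and 224, 250.5, 228, 245 and 200.5 FPM in R-16 to R-20 under HFD. Only R-14 among the SFD aortas lay within the range of the HFD group (log2 fold change -0.48, standard error 0.14, unadjusted p = 0.00300). Ltbp1, which binds latent TGF-beta to microfibrils, was higher by a small step, at 742 to 929 FPM under SFD and 849.9 to 1103 FPM under HFD (log2 fold change 0.26, standard error 0.10, unadjusted p = 0.0172). Elastin itself, Eln, stood at 0.16 (standard error 0.20). In the remodelling and fibrosis list, Spp1 (osteopontin) was at 0.465 to 1.70 FPM under SFD and 1.36 to 6.502 FPM under HFD (log2 fold change 1.44, standard error 0.43, unadjusted p = 0.00317), with 0.97 without R-16, its highest library. Tgfb1 was at 28.4 to 37.7 and 33.7 to 46.0 FPM (log2 fold change 0.29, standard error 0.13, unadjusted p = 0.0398, and unadjusted p = 0.0662 without R-12), and Fn1, fibronectin, stood at 0.64 (standard error 0.31, unadjusted p = 0.0543). Cartilage-like genes were mixed. Sox9, the chondrogenic transcription factor, stood at 0.93 (standard error 0.31) and at 0.44 without R-19, the proteoglycan gene Acan at 0.88 (standard error 0.37, and unadjusted p = 0.0582 without R-12), and Col9a1, a fibril-associated collagen under 1.5 FPM throughout, at -1.24 (standard error 0.42).

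**Figure D3:**
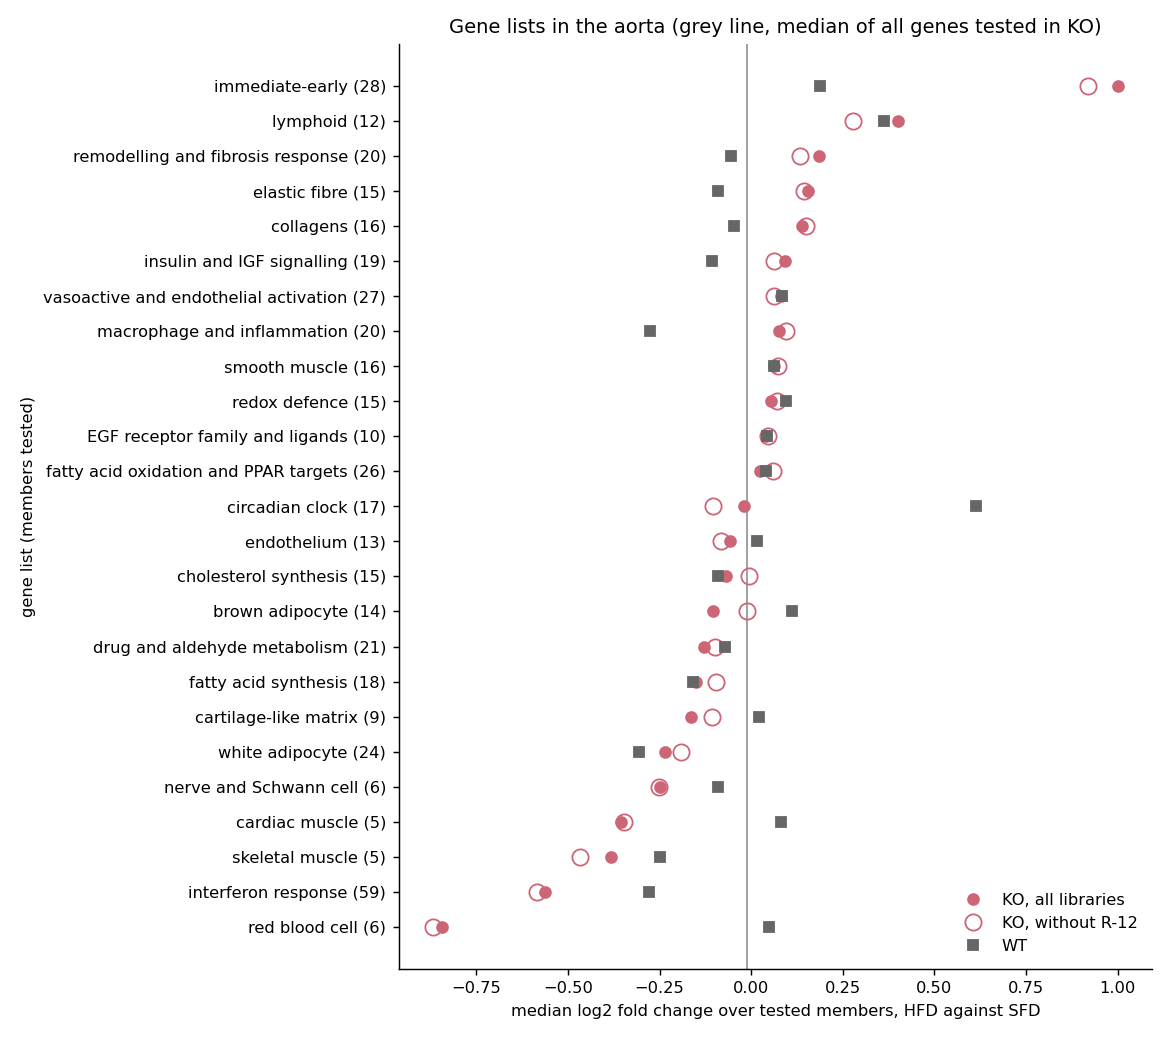
Median log2 fold change of HFD against SFD over the tested members of each of 25 gene lists, in EC-EGFR-KO with all libraries (filled circles), in EC-EGFR-KO without R-12 (open circles) and in WT (squares). The grey line is the KO median of all genes tested, -0.01. The immediate-early list lies farthest to the right at 1.00 and the red blood cell list, which R-11 and R-16 dominate, farthest to the left at -0.84.

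The remaining lists held few differences. Mybpc2, a myosin-binding protein of fast muscle, had 9.67, 9.65, 7.95, 6.65 and 12.3 FPM in R-11 to R-15 under SFD and 6.17, 5.75, 5.95, 6.29 and 6.37 FPM in R-16 to R-20 under HFD, with no overlap (log2 fold change -0.60, standard error 0.17, unadjusted p = 0.00232). Atp2a1, the calcium pump of fast skeletal muscle, was at 0.465 to 0.750 FPM under SFD and 0.0987 to 0.375 FPM under HFD (log2 fold change -1.06, standard error 0.43, unadjusted p = 0.0235), and the 5 tested skeletal muscle genes together made up 6.44 to 12.9 and 4.39 to 8.96 FPM. Mgat5b, a glycosyltransferase, was at 8.39 to 14.3 and 5.57 to 8.38 FPM (log2 fold change -0.61, standard error 0.26, unadjusted p = 0.0304). In insulin and IGF signalling Igfbp6, an IGF-binding protein, was lower (log2 fold change -0.58, standard error 0.25, unadjusted p = 0.0336), with -0.44 (unadjusted p = 0.107) without R-12, and was the only 1 of 19 members at an unadjusted p under 0.05. In redox defence Gpx3, the secreted glutathione peroxidase, was lower (log2 fold change -0.42, standard error 0.16, unadjusted p = 0.0181), again the only 1 of 15. Of all genes, 2.82% were lower at an unadjusted p under 0.05 and 1.74% higher. Clock genes had a median of -0.02 over 17 members and 0 at that p. The cardiac muscle, nerve, lymphoid and red blood cell lists also had 0 members at that p, with medians of -0.35, -0.25, 0.40 and -0.84.

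Whether the diet difference itself depended on the genotype was tested as the interaction of HFD and KO over all 20 aortas. No gene of the 15122 passed the adjustment (0%), and the unadjusted p of the interaction was under 0.05 in 127 (0.84%). Without R-12 and R-1, 132 genes had such a p and 0 passed the adjustment. Cyp2e1 differed by -3.51 on the log2 scale in WT and by -2.85 in KO (interaction unadjusted p = 0.384). For the genes higher in KO the log2 fold changes in WT were -0.06 for Egr2, 0.12 for Hbegf, 0.09 for Trib1, 0.21 for Cbarp and 0.38 for Ednrb. Their unadjusted interaction p-values were 0.00427, 0.0241, 0.0284, 0.0681 and 0.0375 in this order, and each adjusted one was 1.00 in edgeR's quasi-likelihood test. Of the other 11 genes lower in KO, 10 had a negative log2 fold change in WT too, down to -0.78 for Iigp1, and Ifit3b stood at 0.29. The immediate-early list had a median of 0.19 in WT with 0 members at an unadjusted p under 0.05, and 6 of 28 had such an interaction p. Interferon response genes had a median of -0.28 in WT, also below 0, with 1 member at that p, and 1 of 59 had such an interaction p. Clock genes stood at 0.61 in WT, and 1 of 17 had such an interaction p. Their sum was highest in R-7 and R-6 among the WT HFD aortas, at 2077 and 1323 FPM, against 774 to 935 FPM in the others. A difference between the genotypes was thus not shown for any gene. The SFD groups of both genotypes contain 1 of the near-identical libraries each.

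**Figure D4:**
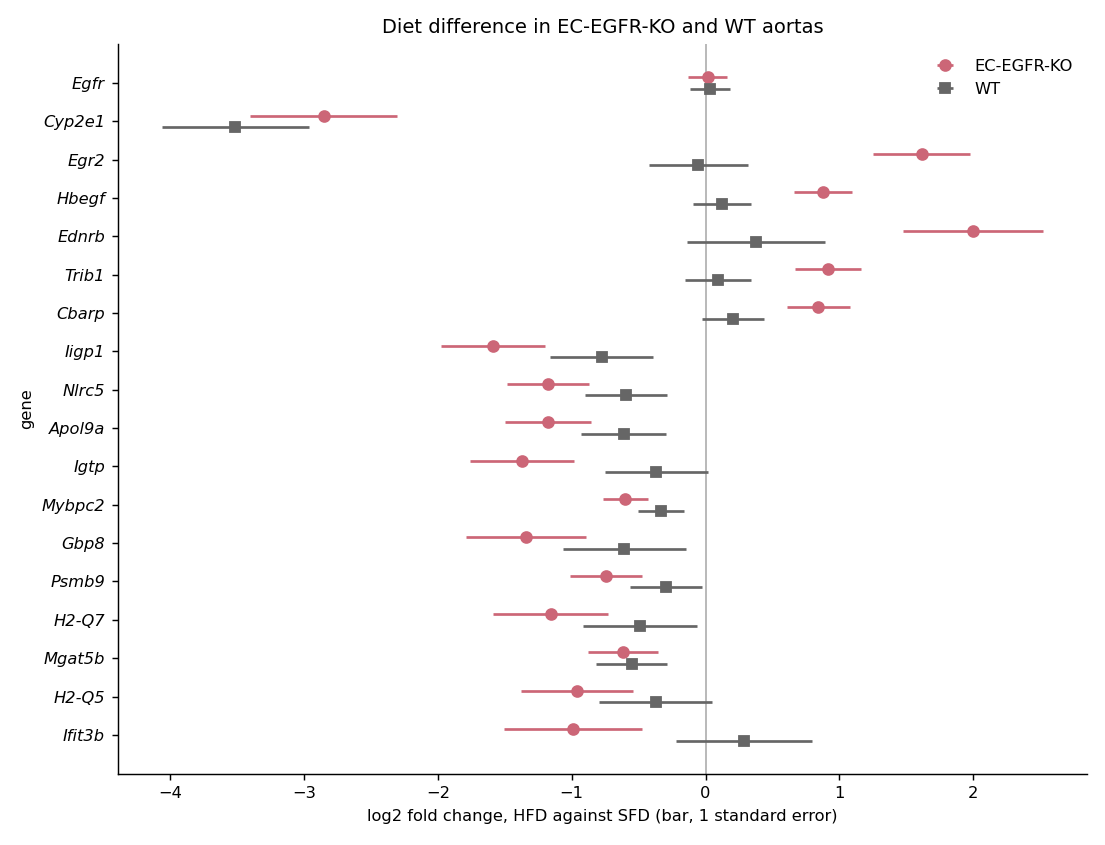
Log2 fold change of HFD against SFD in EC-EGFR-KO (circles) and WT aortas (squares) for Egfr, Cyp2e1 and the 16 other named genes. Bars are 1 standard error, derived from the test statistic of the fit over 20 aortas. Cyp2e1 lies at -2.85 and -3.51, and the 5 genes higher in EC-EGFR-KO lie between -0.06 and 0.38 in WT.

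The kidneys of EC-EGFR-KO mice on the same diets, fitted apart, are set beside the aortic values as a description. Here, too, the counts of a KO HFD kidney (a1) and of a kidney labelled WT under HFD (a12) differed by less than sampling noise (median chi-square over genes 0.0269). Both also had more counts than any other kidney, 48788716 in a1 and 48833447 in a12. Cyp2e1 was lower in the kidney, at -0.76 on the log2 scale (adjusted p = 0.000966 in edgeR's quasi-likelihood test of the kidneys). Egr2, Hbegf and Trib1 were lower there, at -4.03, -2.29 and -0.90 (adjusted p = 0.183, 0.0947 and 0.256 in the same test), so their sign was opposite to that in the aorta. Without a1 and a12 the log2 fold changes were -0.83 for Cyp2e1, -3.87 for Egr2, -2.29 for Hbegf and -0.96 for Trib1. Iigp1, Nlrc5, Igtp and H2-Q7 stood between -0.16 and -0.09. The difference between tissues was not tested.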

How the data were processed

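The authors sequenced oligo(dT)-selected RNA on an Illumina HiSeq with paired reads, mapped it to mm10 and counted reads per gene with featureCounts. The submitters' processing notes and the column names give HISAT2 2.1.0 for mapping, while the methods name Tophat2. The deposited counts per gene are whole numbers without normalization or filter. Total counts per EC-EGFR-KO aorta were 18703113 to 36452741, and the biological coefficient of variation was 29.0%. Groups came from the labels, in which SD stands for SFD. The p-values set the difference between groups against the spread between libraries, with R-1 and R-12 counted as separate mice in the main fit.

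Counts of all 20 aortas were normalized by TMM, filtered with filterByExpr and fitted with a robust quasi-likelihood model in edgeR 4.0.16 (R 4.3.3), with Benjamini-Hochberg adjustment over 15122 genes. FPM are edgeR's CPM on TMM-scaled library sizes. Standard errors are the absolute log2 fold change divided by the square root of the F statistic of the quasi-likelihood test. Named genes are Egfr, Cyp2e1, up to 12 genes each way with the smallest p among those over 5 FPM, past a fold change of 1.5 and without overlap between the diets, and the 3 genes with the smallest p in each list, of which 1 gene is not reported here. Further list members and markers were named after their values were seen. Genes and lists were chosen with earlier results of these data known, and the immediate-early and interferon lists from the values themselves. Lists are described by counts and medians, without a set test. Alternatives were DESeq2 1.42.0, other edgeR tests, scalings, filters, an adipocyte score and left-out libraries. Leaving out R-18 with R-19, and R-15 with R-12 and R-1, was added after seeing the data. The fit was tested on simulated data. Gene coordinates are from GENCODE M21 (GRCm38).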

Additional observations from a re-analysis of the deposited data

Results flagged for a closer look

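In 12 of 88 checks, each of 1 quantity in 5 EC-EGFR-KO aortas of a diet, an end library was set apart from the others by a gap larger than Dixon's 95% limit. A share of 1 in 20 would be 4.4. The checks overlap, and some of their genes and lists were chosen from these values, so 4.4 is not a chance rate for them. R-12 had the most counts of the SFD group, 36452741. R-15 was high in the SFD group for Iigp1 with 135 FPM, Igtp with 78.5 FPM and Gbp8 with 11.1 FPM. R-20 was low in the HFD group for H2-Q7 with 10.7 FPM, Ifit3b with 2.07 FPM and the score of the interferon response list, a mean of log2 values centred over the aortas, with -0.46. R-16 was high in the HFD group for Ednrb with 55.1 FPM and the lymphoid score with 2.45, and R-11 was high in the SFD group for the lymphoid score with 2.22. Hbegf was set apart in both groups, with 31.0 FPM in R-11 within a narrow SFD range and 99.3 FPM in R-19 under HFD. No named gene had a diet effect in KO that differed from that in WT by an adjusted test or by opposite, non-overlapping groups.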

How the results depend on the processing

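The DESeq2 Wald test, the edgeR exact test and the likelihood ratio test each called 1 gene (Cyp2e1), and 0 genes were called under every other setting run, adjusted p alone and a fold change over 2 included. The interaction had 0 genes past the adjustment under each setting run, and no exact test was run for it. The 690 genes at an unadjusted p under 0.05 became 1299 without a filter on low counts, which adds genes to the test, 450 with the white adipocyte score as a covariate, 417 without R-12 and R-1, and 322 without R-15, R-12 and R-1. Leaving out 1 aorta gave 444 (R-12) to 1018 (R-16). The log2 fold change of Cyp2e1 kept its sign, from -3.15 to -2.14 over 34 settings, with adjusted p-values from 0.000686 to 1. Genes near 0 or led by 1 library reversed their sign, and the cause was not tested. Egfr turned to -0.0091 with the adipocyte score, -0.030 without R-12 and R-1, -0.0011 without R-11 and R-16, -0.089 without R-11, R-16, R-12 and R-1 and -0.0013 without R-15, R-12 and R-1, and ranged from -0.070 (R-20) to 0.076 (R-16) without 1 aorta. Without R-11 and R-16, Cd8a was 0.12, Cd79a -0.26 and Ms4a1 -0.21, and with R-12 and R-1 left out too, Cd8a was 0.33 and Cd79a -0.30. Leaving out 1 aorta, Cd8a ranged from -2.28 (R-17) to 0.11 (R-11), Hbb-bt and Slc4a1 from -2.68 and -3.52 (R-16) to 0.20 and 0.35 (R-11), and Cd79a and Ms4a1 from -3.11 and -2.86 (R-16) to 3.78 and 3.76 (R-11). Ptgs2 was -0.19 without R-18 and R-19, and Insig1 0.027 without R-15, R-12 and R-1. No paired analysis was possible because the aortas of the 2 diet groups share no replicate numbers. The 5 aortas per group and the genes at 0 in the table limit what could be detected.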
